A study of Homo sapiens with 18 samples.

Results

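The response of XBP1 knockdown cells to tunicamycin was described from 6 of the 18 RNA-seq libraries of the series, 3 with tunicamycin and 3 with vehicle, chosen by their labels and not by any measured value. All libraries came from A1847, an established human ovarian cancer cell line, in which XBP1 was lowered with a lentiviral shRNA of the TRC collection. Tunicamycin was given at 5 μg/ml for 8 h, and the labels mark the other libraries of the genotype only as control condition, which the study describes as vehicle. Control cells, labelled wild type for both CARM1 and XBP1, and CARM1 knockout cells were treated alike, with 3 libraries per group. The labels do not say whether control cells carried a control vector. Knockdown came from 1 shRNA. The study gives independent biological experiments as the default for its data, but the labels tie no library to a clone or a separate culture, so that p-values measure the spread between these libraries, part of which may be technical.

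The endoplasmic reticulum (ER) folds secreted and membrane proteins, and tunicamycin blocks the first step of N-linked glycosylation, so that unfolded proteins accumulate there. Cells answer with the unfolded protein response through 3 sensors, namely IRE1, which splices XBP1 mRNA into the form that encodes the transcription factor XBP1s, PERK, which slows translation and favours synthesis of ATF4, and ATF6, which is cleaved into a transcription factor. XBP1s is best known for raising genes of ER-associated degradation, protein translocation and vesicle transport, ATF6 for raising chaperones, and ATF4 for raising amino acid and stress genes. Counts per gene do not separate the spliced from the unspliced XBP1 transcript.

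Library totals of the 6 knockdown libraries were 11252147 to 13858603 counts. The first principal component held 56.1% of their variance and placed all vehicle libraries on one side and all tunicamycin libraries on the other. Of 12 markers listed for epithelial ovarian carcinoma, 4 (EPCAM, KRT8, KRT18 and FOLR1) exceeded 3 counts in all 6 libraries, whereas WT1, MUC16 and SOX17 were at 0 and PAX8 and MSLN at no more than 2 counts. Their summed level was 132 to 145 counts per 1000000 counts of a library (CPM) with vehicle and 200 to 216 with tunicamycin. Mesenchymal markers were over 3 counts in all libraries for 6 of 8 genes, with summed levels of 1710 to 1750 and 1440 to 1460 CPM. Leukocyte and endothelial lists had 0 of 4 and 0 of 2 matched genes over that limit in all libraries, with CD3E, VWF and CDH5 at 0. The part of these shifts in the results below was not tested.

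XBP1, on the minus strand of chr22:29190543-29196585 (GRCh37), was measured at 25.5, 24.1 and 26.5 CPM with vehicle in knockdown cells and at 69.1, 73.7 and 72.1 CPM with tunicamycin. Control cells held 51.1, 43.3 and 43.5 CPM with vehicle and 153, 148 and 148 CPM with tunicamycin. Every knockdown library was below every control library of the same treatment, and XBP1 transcript remained in all of them. Tunicamycin raised XBP1 by 1.49 ± 0.068 (log2 fold change ± SE, n = 3 per group) in knockdown cells (adjusted p = 1.59e-10, edgeR quasi-likelihood test) and by 1.72 in control cells. The difference between these responses was -0.22 and was not called (adjusted p = 0.308, edgeR interaction term).

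Of 17317 genes tested, 3333 (19.2%) were higher and 3297 (19%) lower with tunicamycin in knockdown cells at a false discovery rate (FDR) of 5%, 6630 in all (38.3%). These percentages are the background for every list below, as is the median log2 fold change of 0 over all genes tested. Among protein-coding genes alone the shares were 22% higher and 22.3% lower. Changes of at least 2-fold were found for 759 higher and 531 lower genes, and changes of at least 8-fold for 111 and 20. The calls were alike in number in control cells, with 3808 higher (22%) and 3450 lower (19.9%), 7258 in all (41.9%).

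Among genes averaging 3 or more in log2 CPM, the largest rise by fold was that of NIBAN1, which encodes a stress-induced regulator of translation. It was at 0.60, 0.57 and 1.33 CPM with vehicle and at 196, 197 and 189 CPM with tunicamycin, without overlap. TRIB3, a pseudokinase induced by ATF4 and CHOP, went from 3.77, 4.33 and 5.62 to 169, 173 and 173 CPM, a log2 change of 5.21 ± 0.092. The cystine transporter gene SLC7A11 (4.99), the glutathione-degrading enzyme gene CHAC1 (4.94) and DDIT3, which encodes the transcription factor CHOP (4.48), followed. GDF15 (3.91), AKNA (3.89), MAP1B (3.84), STC2 (3.80), CCPG1 (3.55), DNAJB9 (3.52) and TSC22D3 (3.40) complete the 12 largest rises. In absolute terms HSPA5, the gene of the main ER chaperone BiP, rose most, from 1044, 1013 and 1019 to 7978, 8243 and 8179 CPM. After it, the long noncoding RNA MALAT1 (0.72), HSP90B1 and CALR gained most CPM among called genes, in this order. MTND1P23, a copy of mitochondrial sequence, was at 14153 and 15390 CPM on average and not called. Mitochondrial genes themselves held 0% of the counts of each knockdown library, and reads counted for MTND1P23 may come from them. HSPA5 took 0.108 to 0.110% of the counts of a library with vehicle and 0.816 to 0.834% with tunicamycin.

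Among falls ranked with the same minimum of 3 in log2 CPM, that of NOTCH3, a Notch receptor gene, was the largest by fold, from 34.2, 34.0 and 35.7 to 5.57, 3.69 and 3.56 CPM (log2 -3.00 ± 0.14, adjusted p = 1.49e-10, edgeR). COL26A1 (-2.85), FAM111B (-2.39), the transferrin receptor gene TFRC (-2.22), HSPA8 (-2.12), KCNJ4 (-1.98), S100A4 (-1.96), PAQR4 (-1.95), CD248 (-1.93), SDC1 (-1.88), CDK5R1 (-1.85) and CD59 (-1.85) followed. HSPA8, the constitutive cytosolic HSP70 gene, also lost most CPM, from 1924, 1911 and 1967 to 457, 447 and 441, and PTMA, HSP90AA1, TUBB and HSP90AB1 came next. Genes were ranked by fold only where the vehicle and tunicamycin libraries did not overlap.

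**Figure D1:**
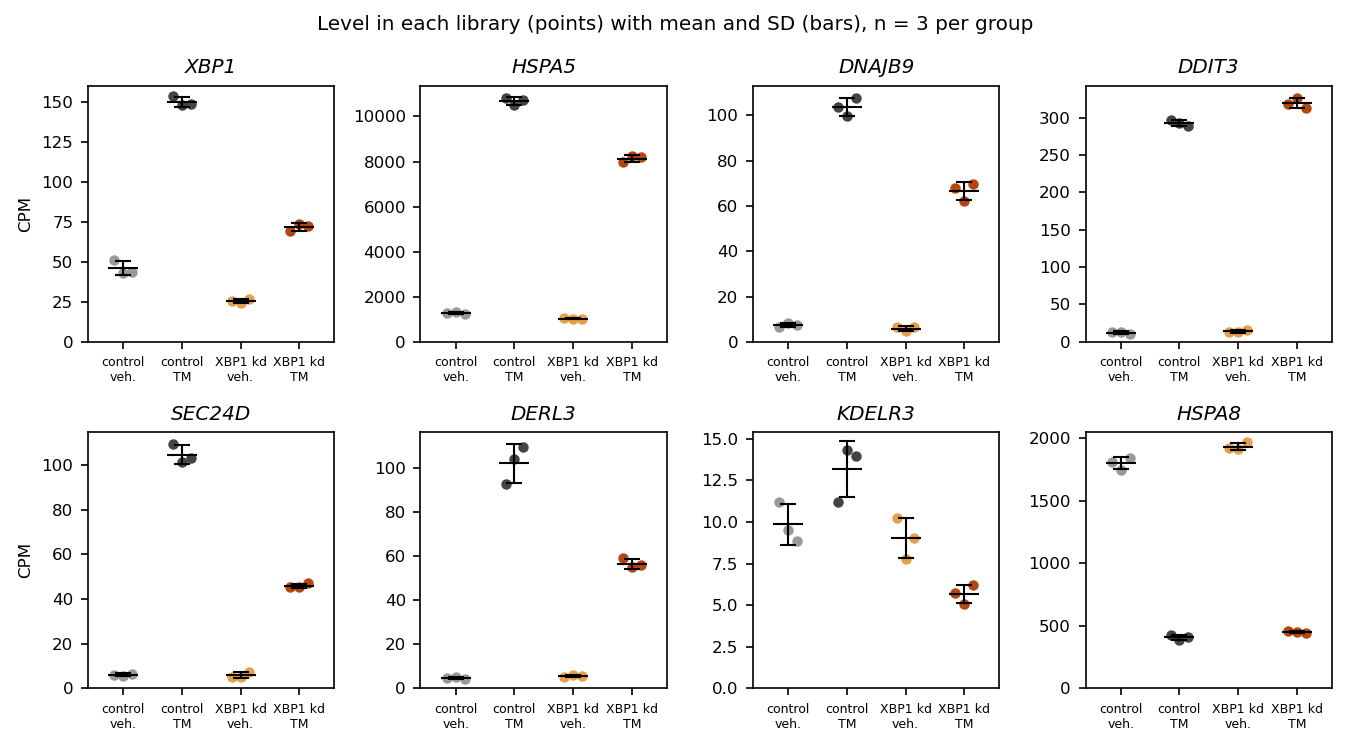
Level in CPM (y axis, from 0) of 8 genes in each library of control and XBP1 knockdown cells with vehicle (veh.) or tunicamycin (TM), where points are libraries and bars are mean and SD of 3. HSPA5 rose to 7978 to 8243 CPM in knockdown cells, whereas KDELR3 fell to 5.09 to 6.21 CPM and HSPA8 to 441 to 457 CPM.

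Promoters of key genes that carry the classical element for ER stress, ERSE, or its variant are shown with the element in capitals. Shown with them are ASNS and CHAC1, picked from the key genes of the ATF4 branch that carry its element, and KDELR3. Each runs from 250 bases before to 50 after the start of the gene, 5′ to 3′ on the strand of the gene, and was taken from RefSeq on GRCh38.p14. Searched on both strands were ERSE (CCAAT and CCACG with 9 bases between), ERSE-II (ATTGG and CCACG with 1 base between), the XBP1s element UPRE (TGACGTGG) and the ATF4 element CARE (TGATGNAA). HSPA5 lies at chr9:125241294-125241593 (minus strand), HSP90B1, which encodes the ER chaperone GRP94, at chr12:103930160-103930459 (plus), XBP1 at chr22:28800520-28800819 (minus), HERPUD1 at chr16:56931892-56932191 (plus), ASNS at chr7:97872359-97872658 (minus), CHAC1 at chr15:40953221-40953520 (plus) and KDELR3 at chr22:38467846-38468145 (plus). Capitals mark ERSE in HSPA5, XBP1 and, at 2 positions, HSP90B1, CARE and ERSE-II in HERPUD1, CARE in ASNS and CHAC1, and UPRE in KDELR3, which was added after its values were seen.
HSPA5: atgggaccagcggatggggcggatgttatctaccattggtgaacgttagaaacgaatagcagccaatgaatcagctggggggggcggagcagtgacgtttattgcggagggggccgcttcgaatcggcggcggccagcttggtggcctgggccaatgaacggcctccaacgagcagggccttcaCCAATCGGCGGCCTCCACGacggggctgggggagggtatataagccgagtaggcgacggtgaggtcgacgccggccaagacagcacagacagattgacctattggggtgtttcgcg
HSP90B1: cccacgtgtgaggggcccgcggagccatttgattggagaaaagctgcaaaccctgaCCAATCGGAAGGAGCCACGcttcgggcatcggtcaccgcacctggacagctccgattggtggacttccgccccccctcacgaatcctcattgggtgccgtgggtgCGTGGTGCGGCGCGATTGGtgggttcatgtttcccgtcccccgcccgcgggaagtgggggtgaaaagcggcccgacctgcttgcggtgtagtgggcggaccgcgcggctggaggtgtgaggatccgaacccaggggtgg
XBP1: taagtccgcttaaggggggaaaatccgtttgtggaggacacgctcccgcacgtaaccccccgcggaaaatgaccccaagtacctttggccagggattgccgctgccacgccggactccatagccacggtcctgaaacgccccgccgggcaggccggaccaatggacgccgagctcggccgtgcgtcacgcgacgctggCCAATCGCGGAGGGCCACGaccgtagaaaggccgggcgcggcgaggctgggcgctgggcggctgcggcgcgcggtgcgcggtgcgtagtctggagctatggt
HERPUD1: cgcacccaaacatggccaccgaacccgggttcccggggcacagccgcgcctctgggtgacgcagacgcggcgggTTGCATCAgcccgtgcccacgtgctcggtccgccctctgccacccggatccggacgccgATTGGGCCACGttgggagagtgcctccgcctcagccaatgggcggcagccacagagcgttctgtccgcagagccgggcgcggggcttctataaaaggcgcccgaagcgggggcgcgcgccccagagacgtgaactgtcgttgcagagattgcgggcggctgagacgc
ASNS: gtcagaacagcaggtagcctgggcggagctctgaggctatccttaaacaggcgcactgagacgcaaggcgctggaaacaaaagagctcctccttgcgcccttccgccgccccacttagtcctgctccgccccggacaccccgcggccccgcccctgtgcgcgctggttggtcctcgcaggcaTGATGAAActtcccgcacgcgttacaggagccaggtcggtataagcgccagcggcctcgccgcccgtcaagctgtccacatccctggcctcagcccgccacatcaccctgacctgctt
CHAC1: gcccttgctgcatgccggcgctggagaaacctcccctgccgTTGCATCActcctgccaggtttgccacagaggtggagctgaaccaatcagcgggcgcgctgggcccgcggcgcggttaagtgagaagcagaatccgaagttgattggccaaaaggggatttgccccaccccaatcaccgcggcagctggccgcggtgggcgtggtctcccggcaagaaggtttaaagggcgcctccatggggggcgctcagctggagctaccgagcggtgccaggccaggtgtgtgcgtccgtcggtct
KDELR3: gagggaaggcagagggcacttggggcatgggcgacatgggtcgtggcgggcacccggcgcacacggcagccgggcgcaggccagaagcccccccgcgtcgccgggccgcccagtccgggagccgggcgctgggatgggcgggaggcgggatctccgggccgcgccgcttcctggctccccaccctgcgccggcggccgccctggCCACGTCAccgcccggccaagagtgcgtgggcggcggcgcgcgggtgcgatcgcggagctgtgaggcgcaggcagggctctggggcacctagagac

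Among protein-coding genes tested, 82% had a promoter in the table, and 14 of these 11095 promoters (0.126%) held ERSE, against 0.0806% of all 27305 promoters in the table. Of those 14 genes, 12 rose in knockdown cells and 0 fell, and 10 of the 12 rose at least 2-fold. CARE stood in 7.11% of the promoters of genes that rose at least 2-fold and in 1.82% of those of tested protein-coding genes, against 3.67% of the whole table. No tested promoter held both ERSE and UPRE. These are matches of letters in a 300-base window, given as a description without a test. Among key genes of the lists, ATF3, NARS1 and SLC3A2 carried CARE too and are not printed. Several key genes, such as ATF4, DDIT3, TRIB3, DNAJB9, EDEM1, SEL1L and SSR1, held no match to any element searched.

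All 18 listed sensors and transcription factors of the unfolded protein response rose, with a median log2 fold change of 1.69 (1.78 in control cells). ATF3, a stress-induced repressor, was at 0.60, 0.50 and 0.77 CPM with vehicle and at 70.8, 70.1 and 65.9 CPM with tunicamycin. ATF4 rose by 1.74 ± 0.035, from 415 to 427 CPM to 1410 to 1438 CPM. The genes of the 3 sensors, EIF2AK3 for PERK (2.27), ERN1 for IRE1 (1.46) and ATF6 (1.44), all rose, and ATF6B, the paralogue of ATF6, had the smallest rise (0.41).

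All 15 ER chaperones and co-chaperones rose as well, with a median of 2.06 (2.30 in control cells). DNAJB9, an ER co-chaperone and a common readout of XBP1s, went from 6.33, 4.68 and 6.39 to 68.1, 62.3 and 69.7 CPM. Its tunicamycin level was 99.9 to 108 CPM in control cells, while the difference between responses (-0.29) was not called (adjusted p = 0.414, edgeR interaction). HSPA5 (2.98 ± 0.028), HSP90B1 (1.48) and CALR (1.15), the calreticulin gene, rose without a called difference from control cells. The level of HSPA5 was nevertheless lower in every knockdown library than in every control library of the same treatment. Control cells held 1245 to 1304 CPM with vehicle and 10495 to 10834 CPM with tunicamycin. CALR overlapped between these genotypes under both treatments, and HSP90B1 overlapped with vehicle but was lower in knockdown cells with tunicamycin. DNAJC1 rose least (0.59).

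Of 16 disulfide isomerases and ER oxidases, 12 rose and 1 fell (median 0.80, against 0.86 in control cells). ERO1B, an ER oxidase gene, rose by 2.93 and PDIA4, a disulfide isomerase gene, by 1.47, whereas PRDX4, an ER peroxiredoxin gene, fell by 0.38 on the log2 scale. ERO1A, at 98.1 ± 6.6 CPM with vehicle and 95.8 ± 4.4 CPM with tunicamycin (SD, n = 3), overlapped between groups.

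ER-associated degradation, which returns misfolded proteins to the cytosol, had 17 of 24 members higher and 1 lower, with a median of 0.93 (1.34 in control cells). DERL3, a derlin gene, went from 4.97, 5.82 and 5.55 to 59.0, 54.8 and 55.7 CPM in knockdown cells. In control cells it reached 92.5, 104 and 110 CPM, above every knockdown library. The difference between responses was -1.08 (adjusted p = 0.000379, edgeR interaction term). HERPUD1 (3.28), a scaffold of the degradation complex, SEL1L (3.08), the adaptor of the ligase, and EDEM1 (1.47), a mannosidase-like factor, rose too, and UBE2G2, a ubiquitin-conjugating enzyme gene, fell by 0.24 on the log2 scale. AUP1 was not called (0.09, adjusted p = 0.192, edgeR).

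Translocation and signal peptide cleavage had 16 of 22 members higher and 1 lower (median 0.55, against 0.98 in control cells). SSR1, a subunit of the translocon-associated TRAP complex, was at 137, 129 and 135 CPM with vehicle and 209, 221 and 213 CPM with tunicamycin in knockdown cells. Control cells reached 333 to 351 CPM, again without overlap. SEC11C, a signal peptidase subunit, rose by 1.55 and SEC61A1, the channel of the translocon, by 1.18, while SRP14 fell by 0.21 on the log2 scale.

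COPII proteins and cargo receptors, which carry proteins between ER and Golgi, had 20 of 24 members higher and 1 lower (median 0.58, against 0.90). SEC24D, a coat subunit gene, went from 5.12, 4.97 and 7.44 to 45.2, 45.5 and 47.0 CPM. Control cells reached 109, 101 and 103 CPM, above all knockdown libraries. SEC23B rose by 1.67 in knockdown cells and 2.38 in control cells. The member that fell was KDELR3, a receptor that returns ER proteins from the Golgi, which was at 10.2, 7.81 and 9.06 CPM with vehicle and at 5.71, 5.09 and 6.21 CPM with tunicamycin. It fell in knockdown cells (-0.68 ± 0.16) and rose in control cells (0.44), and the difference of -1.10 was called (adjusted p = 0.0058, edgeR interaction term).

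N-glycan assembly had 22 of 37 members higher and 5 lower (median 0.38, against 0.46 in control cells). GFPT1, the entry enzyme of the hexosamine pathway, rose by 1.85, DPAGT1, the enzyme that tunicamycin inhibits, by 0.30, and DPM3, a subunit of dolichol-phosphate mannose synthase, fell by 1.22 on the log2 scale. In the UFMylation list, a ubiquitin-like modification acting at ER ribosomes, 6 of 7 members rose (median 0.47, against 1.02). Taken gene by gene, the median difference between responses in knockdown and control cells was only -0.11 for this list. UFL1, its ligase gene, rose by 1.09 and UFM1, the modifier, by 0.58, and UFC1 was not called (-0.12, adjusted p = 0.114, edgeR).

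**Figure D2:**
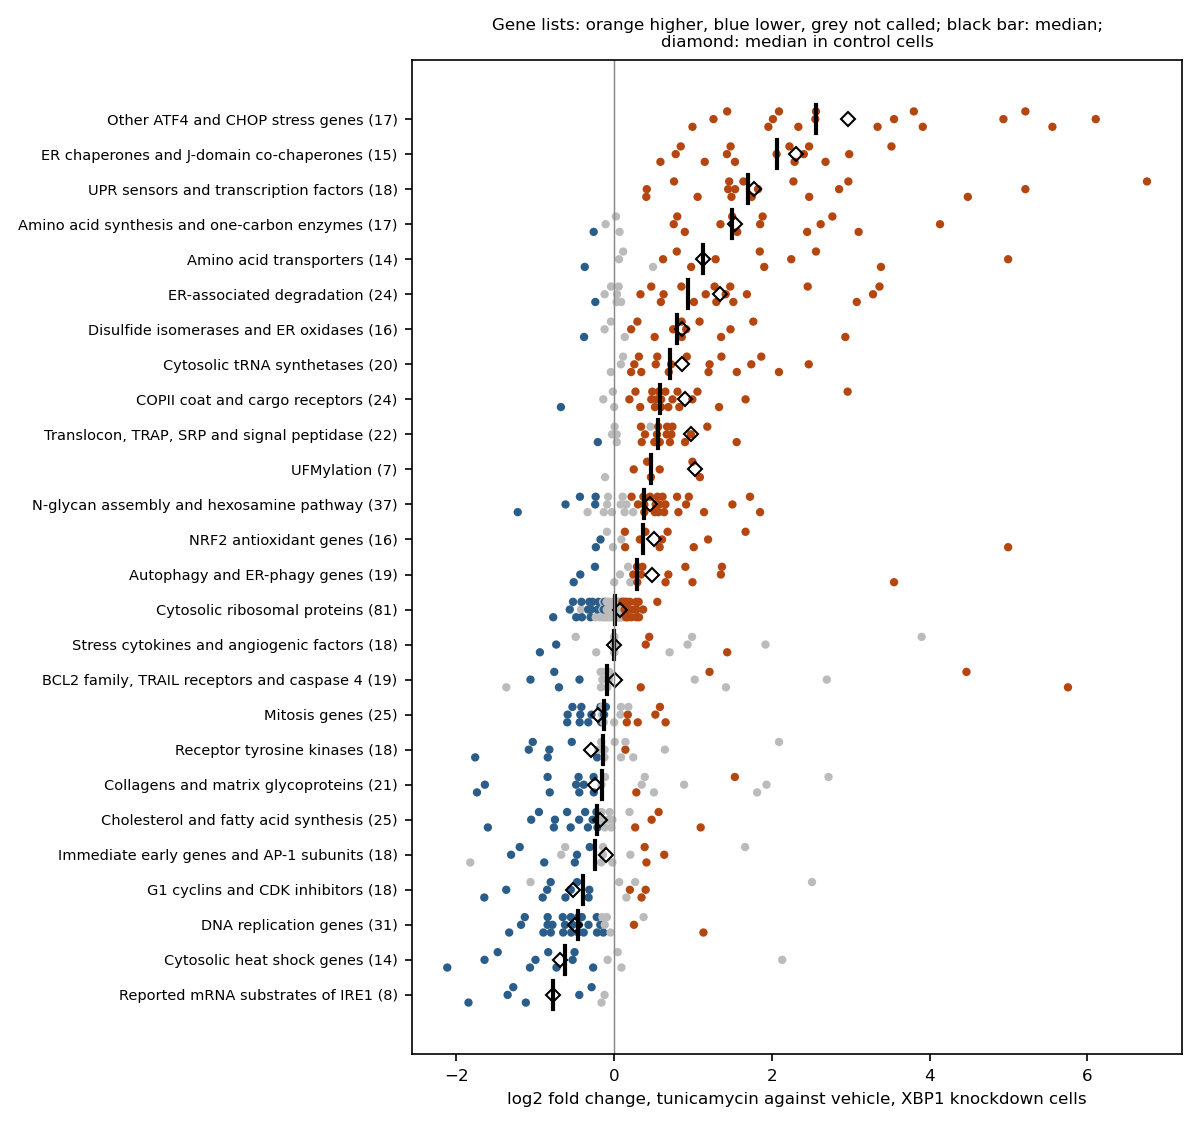
Log2 fold change of tunicamycin against vehicle (x axis) in XBP1 knockdown cells for each tested member of 26 gene lists (y axis, number tested in brackets), with orange for higher, blue for lower and grey for not called genes, a black bar for the list's median and a diamond for its median in control cells. The medians are 1.69 for sensors and transcription factors and 2.06 for ER chaperones, and -0.63 for heat shock, -0.46 for replication and -0.78 for IRE1 substrate genes.

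Lists of ATF4 and CHOP targets followed. Of 17 amino acid synthesis and one-carbon enzymes, 13 rose and 1 fell, with a median of 1.5 (1.53 in control cells). ASNS, asparagine synthetase, rose from 64.6 ± 1.0 to 399 ± 28 CPM (SD, n = 3), and PSAT1, a serine synthesis enzyme, from 175 ± 21 to 518 ± 12 CPM. PYCR3, of proline synthesis, was the member that fell (-0.26), and its call was lost when any of 5 of the 6 libraries was left out. PYCR1 was counted at 0, 0 and 1 with vehicle and at 10, 5 and 7 with tunicamycin, and the list's median was 1.41 with this gene at its bound against 3 counts per library.

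Amino acid transporters had 10 of 14 members higher and 1 lower (median 1.13 in both genotypes). SLC3A2, the partner of SLC7A11, rose by 2.24, and SLC7A6, the member that fell (-0.37), lost its call when any of 4 of the 6 libraries was left out. Of 20 cytosolic tRNA synthetases, which load amino acids onto tRNA, 17 rose and 0 fell (median 0.71, against 0.85). WARS1 rose by 2.47 and NARS1 by 1.21, and RARS1 was not called (-0.04, adjusted p = 0.541, edgeR). All 17 other stress genes of ATF4 and CHOP rose (median 2.56, against 2.97 in control cells), with WIPI1, an autophagy gene, at the low end (0.99). Taken gene by gene, however, the median difference between responses in knockdown and control cells was 0.018 for this list. FGF21, a stress hormone gene, was counted at 0 in each vehicle library and at 6, 8 and 10 with tunicamycin.

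Other genes were near 0 counts with vehicle and are given as counts. LAMP3, a lysosomal membrane protein gene, had 0, 0 and 2 counts with vehicle and 169, 105 and 100 with tunicamycin. KLHDC7B had 1, 0 and 0 against 147, 85 and 115, CSTA 0, 1 and 1 against 74, 65 and 69, and FGF19, a hormone gene, 0, 0 and 0 against 19, 28 and 32. Among called genes, 71 higher genes had at most 3 counts in every vehicle library, and 29 lower genes at most 3 in every tunicamycin library.

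Apoptosis regulators of the BCL2 family with TRAIL receptors were near the background in both directions, with 4 of 19 members (21.1%) higher and 4 lower. TNFRSF10B, the death receptor DR5 and a CHOP target, rose from 52.2 ± 0.42 to 121 ± 4.7 CPM (SD, n = 3), and BBC3, which encodes PUMA, by 0.34. BCL2L11, the gene of BIM, fell by 1.06 on the log2 scale. PMAIP1, which encodes NOXA, was counted at 0 with vehicle and at 8, 5 and 6 with tunicamycin, and MCL1 overlapped between groups.

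Reported mRNA substrates of IRE1, which its nuclease cleaves, fell in 6 of 8 cases with a median of -0.78 (-0.77 in control cells). CD59, a complement inhibitor gene, fell from 52.3 ± 0.21 to 14.7 ± 1.3 CPM and BLOC1S1, a lysosome trafficking gene, from 35.4 ± 4.6 to 14.6 ± 0.80 CPM (SD, n = 3). SPARC was not called (-0.16, adjusted p = 0.0615, edgeR). Cytosolic heat shock genes had 10 of 14 members lower and 0 higher, with a median of -0.63 (-0.69 in control cells). Besides HSPA8, the co-chaperone gene DNAJB1 fell by 1.07 on the log2 scale, and HSPA4 was not called (-0.08). The list also holds HSPD1, which encodes a mitochondrial and not a cytosolic chaperone and was not called (0.04).

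DNA replication genes fell in 24 of 31 cases with 2 higher (median -0.46, against -0.49 in control cells). PCNA, the replication clamp, fell from 216 ± 13 to 95.5 ± 6.9 CPM, MCM10 from 129 ± 1.2 to 51.5 ± 1.2 CPM and MCM2, a helicase subunit, by 0.55 on the log2 scale. CDC6, a licensing factor, was 1 of the 2 members that rose, from 106, 106 and 106 to 232, 235 and 236 CPM. In control cells it reached 299 to 304 CPM, and the response of knockdown cells minus that of control cells was -0.48 (adjusted p = 0.000155, edgeR interaction).

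Mitosis genes had 12 of 25 members lower and 6 higher, with a median of -0.13. MKI67, a proliferation marker, fell by 0.60 and CCNB1, cyclin B1, by 0.29 on the log2 scale, CDC25C rose by 0.65, and PLK1 was not called. Of 18 G1 cyclins and CDK inhibitors, 10 fell and 3 rose (median -0.40). CCND1, cyclin D1, fell from 190 ± 11 to 102 ± 2.6 CPM (SD, n = 3), E2F2 by 1.65 on the log2 scale, and CDKN1A, which encodes p21, was not called (0.27, adjusted p = 0.0711, edgeR).

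Cholesterol and fatty acid synthesis genes were lower in 13 of 25 cases and higher in 4 (median -0.21). INSIG1, a sterol sensor gene, fell by 1.60 on the log2 scale, while STARD4, a sterol carrier gene, rose by 1.10. NRF2 antioxidant genes had 11 of 16 members higher and 2 lower (median 0.36). HMOX1, heme oxygenase, rose from 23.0 ± 0.98 to 73.3 ± 2.5 CPM and SRXN1 fell by 0.23 on the log2 scale. Autophagy and ER-phagy genes rose in 12 of 19 cases and fell in 3 (median 0.29), with CCPG1, an ER-phagy receptor, at the top, SQSTM1, the p62 adaptor, higher by 0.69 and TEX264 lower by 0.51 on the log2 scale.

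Immediate early genes had 3 of 18 members higher and 6 lower. JUNB fell by 1.20 on the log2 scale, DUSP6, a phosphatase of ERK, rose by 0.41, and FOS was not called. Cytokines and angiogenic factors had 3 of 18 higher and 2 lower, with VEGFA higher by 1.43. Collagens and matrix glycoproteins fell in 10 of 21 cases and rose in 2. LAMA5, a laminin gene, had the largest fall of the listed members, by 1.74 on the log2 scale, while COL26A1 is not on the list. FN1, fibronectin, was one of the members that rose (1.53), but its groups overlapped and its call was lost without vehicle replicate 1 (1.18, adjusted p = 0.0654) or without tunicamycin replicate 1 (1.07, adjusted p = 0.0948, edgeR). Receptor tyrosine kinases fell in 7 of 18 cases, FGFR3 by 1.76 on the log2 scale, and 1 rose, PDGFRA (0.14). Cytosolic ribosomal proteins were near the background in both directions, with 19 of 81 higher, 16 lower and a median of 0.01, RPL22L1 rising by 0.55, RPLP0 by 0.28 and RPS25 falling by 0.77 on the log2 scale.

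Whether knockdown cells answered differently from control cells was tested as the interaction term over 12 libraries. A difference below 0 means a lower log2 fold change in knockdown than in control cells. The response differed for 353 of 17317 genes (2.04%), with 290 (1.67%) below 0 and 63 (0.364%) above 0. The larger number was 208 to 357 with 1 library left out. The smaller one was 24 without knockdown vehicle replicate 2 or tunicamycin replicate 3, 27 without tunicamycin replicate 2, 41 without vehicle replicate 3, 36, 32 and 98 without control vehicle replicates 1, 2 and 3, and 28 without control tunicamycin replicate 3. Of genes higher in knockdown cells, 187 had a called difference below 0 and 21 above 0. These numbers were 47 and 22 for genes lower in knockdown cells and 56 and 20 for genes not called there.

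Differences below 0 were found for 11 of 24 genes of ER-associated degradation, 12 of 22 of translocation, 12 of 24 of COPII, 8 of 37 of N-glycan assembly, 3 of 7 of UFMylation and 3 of 15 ER chaperones. They numbered 0 of 14 amino acid transporters, 0 of 20 tRNA synthetases, 1 of 17 other ATF4 and CHOP genes (WIPI1) and 1 of 18 sensors and transcription factors (ATF6, a call lost when any of 3 of the 12 libraries was left out). Also below 0 were 2 of 16 disulfide isomerases and ER oxidases and 1 of 17 amino acid synthesis and one-carbon enzymes. None of these lists had a called difference above 0. In other lists, differences below 0 were called for 2 of 14 cytosolic heat shock, 2 of 31 DNA replication and 2 of 25 cholesterol and fatty acid synthesis genes. So were 1 of 19 autophagy genes, 1 of 21 collagens and matrix glycoproteins and 1 of 81 ribosomal proteins. Differences above 0 were called for 4 of 18 immediate early genes and 1 of 18 receptor tyrosine kinases. Of the immediate early genes, JUNB and DUSP6 lost this call when any of 4 and 7 of the 12 libraries was left out.

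**Figure D3:**
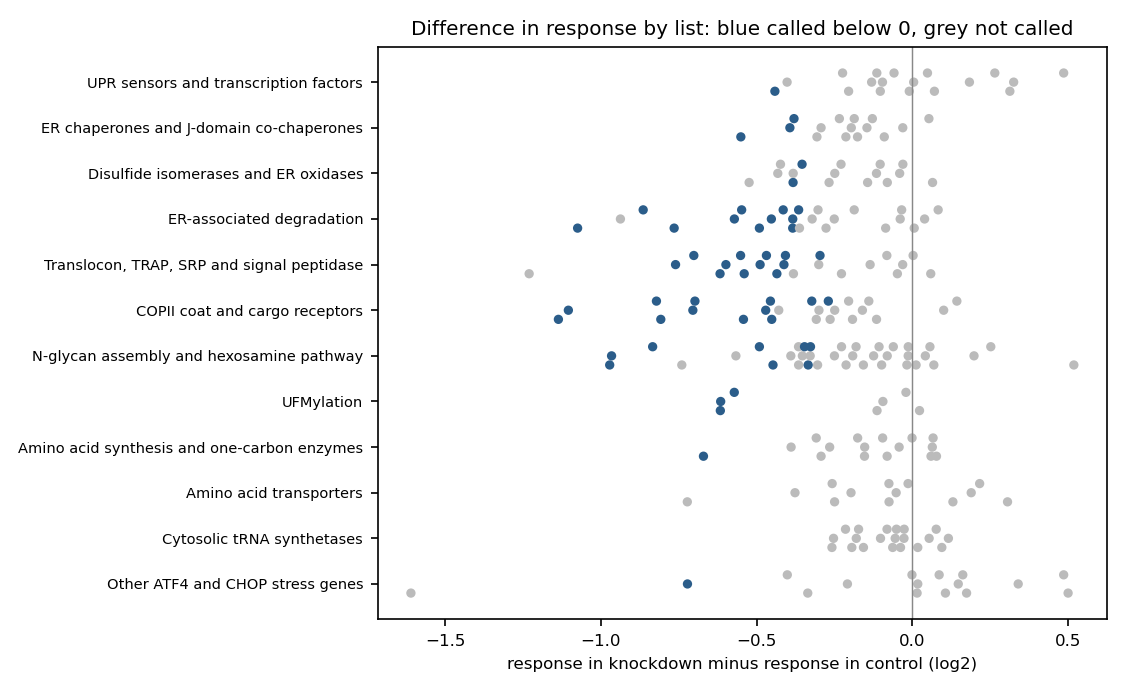
Response to tunicamycin in XBP1 knockdown cells minus that in control cells (x axis, log2) for tested members of 12 lists (y axis), without genes at or under 3 counts in every library of a knockdown group, with blue for called differences below 0 and grey for the rest. Degradation, translocation and COPII lists hold 11, 12 and 12 blue points.

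The lowest differences among genes averaging 3 or more in log2 CPM were those of FBXO16 (-1.29), GLRX (-1.28), B9D1 (-1.20), SEC24D (-1.14), MGAT2 (-1.11) and DERL3 (-1.08). GLRX, a glutaredoxin gene, was at 7.15, 8.23 and 8.15 CPM with vehicle and 10.2, 7.81 and 9.68 CPM with tunicamycin in knockdown cells, with overlap, whereas it rose by 1.51 in control cells. MGAT2, a Golgi glycosyltransferase gene, rose by 0.41 in knockdown cells and 1.54 in control cells, and its call in knockdown cells was lost without tunicamycin replicate 3 (0.34, adjusted p = 0.0593, edgeR). The highest differences were those of N6AMT1 (1.44), NIBAN1 (0.94), TRIM14 (0.83), NRARP (0.82), SMIM29 (0.75) and APC2 (0.71), of which NIBAN1, TRIM14, NRARP and SMIM29 lost their call when any of 11, 8, 5 and 11 of the 12 libraries was left out. N6AMT1, a methyltransferase gene, was at 13.9, 14.3 and 16.0 CPM with vehicle and 17.7, 15.6 and 15.8 CPM with tunicamycin in knockdown cells, while it fell by 1.28 on the log2 scale in control cells, to 5.28 to 6.65 CPM.

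UPRE stood in 15 of 230 promoters (6.52%) of protein-coding genes with a difference below 0, against 0.928% of all tested protein-coding genes and 1.90% of those that rose in knockdown cells and 0.795% of the whole table. ERSE and ERSE-II stood in 2 of the 230 promoters each (0.87%, against 0.126% and 0.0991% of all tested protein-coding genes), and CARE in 4 (1.74%, against 1.82%). Among the 15, named after their values were seen, were the coatomer genes COPA (-0.44), COPB1 (-0.48) and COPB2 (-0.56), VCP (-0.41), the ATPase that extracts ER proteins, SRP19 (-0.76), SMIM14 (-0.80) and KDELR3, all given as differences between responses. The promoter windows were the same as above, and no test was made.

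**Figure D4:**
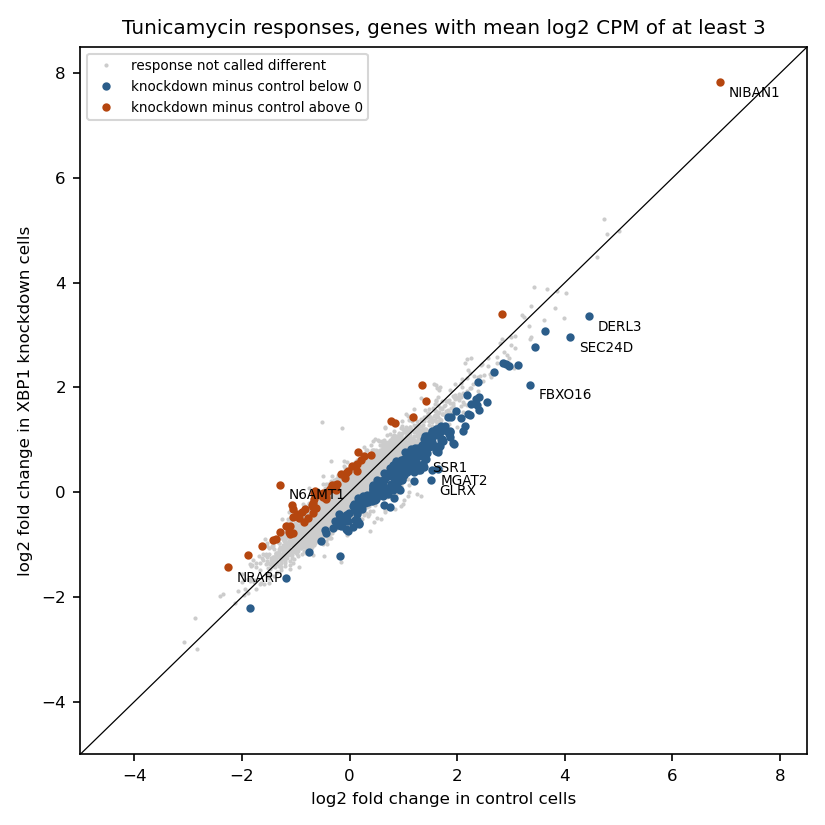
Log2 fold change of tunicamycin against vehicle in control cells (x axis) and XBP1 knockdown cells (y axis) for genes averaging 3 or more in log2 CPM, with the line of equal response, blue for differences called below 0 and orange for those called above 0. Most blue points lie where control cells rose more, such as DERL3 at 4.45 and 3.36 or SEC24D at 4.10 and 2.96.

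Calls were shared for 2703 higher genes, 81.1% of those of knockdown cells and 71% of those of control cells, and for 2601 lower genes, 78.9% and 75.4%. Taken gene by gene, and genes do not count as replicates, fold changes in these 2 genotypes had Pearson's r of 0.593 and Spearman's rho of 0.664 over 17317 genes of separate libraries. Calls were opposite for 13 genes. PPP2R2A, a phosphatase subunit gene, and PDGFRA rose in knockdown cells (0.16 and 0.14) and fell in control cells (-0.22 and -0.27), but in knockdown cells the call of PDGFRA was lost when any of 3 of the 6 libraries was left out and that of PPP2R2A for 2 of them. KDELR3 was among the 11 that fell in knockdown cells and rose in control cells.

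CARM1 knockout cells had 3572 genes higher (20.6%) and 3264 lower (18.8%) with tunicamycin, 6836 in all (39.5%). Their response differed from that of knockdown cells for 3647 genes (21.1%), with 1980 above 0 (11.4%) and 1667 below 0 (9.63%), and the larger side was below 0 without knockdown vehicle replicate 3 (1567 above, 1982 below), with at least 10 counts in every library (1598 and 2040) or with no filter on low counts (1616 and 2202). Calls were shared with knockdown cells for 57.8% of their higher and 48.8% of their lower genes. Medians of the degradation, translocation and COPII lists were 0.35, 0.63 and 0.69 in knockout cells. They too were below those of control cells (1.34, 0.98 and 0.90). The response of knockdown minus that of knockout cells was called above 0 for 9 and below 0 for 3 degradation genes. These numbers were 4 and 6 for translocation and 4 and 4 for COPII. Knockout cells also differed widely with vehicle in the level of some genes. FN1 averaged 2442 CPM with vehicle in knockout cells, 2.09 in knockdown cells and 4.3 in control cells. PDGFRA averaged 0.084, 202 and 204 CPM in the same order. The part of such vehicle levels in the differences between responses was not tested. ATF3 rose by 2.33 in knockout cells, from 4.11 ± 0.95 to 20.3 ± 1.7 CPM (SD, n = 3), against 6.76 in knockdown cells. NIBAN1 rose by 2.52 against 7.83, but from 59.1 ± 2.2 to 331 ± 11 CPM (SD, n = 3) in knockout cells, so that its level was higher there than in knockdown cells under both conditions. HERPUD1 rose more in knockout cells (4.70 against 3.28), from 47.8 ± 4.3 to 1209 ± 15 CPM (SD, n = 3). These 3 differences in log2 fold change passed the interaction test of edgeR.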

How the data were processed

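RNA was prepared as 3′ mRNA-seq libraries (Lexogen) and read as 75 nt single reads. The authors aligned reads to hg19 with bowtie2 and deposited RSEM expected counts for Ensembl genes, not normalized and whole. The sources differ in the RSEM version, and they give no Ensembl release. Reads from the 3′ end reflect transcript number and not length.

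Columns were matched to libraries by their labels, with 0 left unmapped, and 55501 of 57736 genes had a symbol. In R 4.3.3, edgeR 4.0.16 was used with filterByExpr at a minimum count of 10 over all 18 libraries, TMM normalization, quasi-likelihood F tests on the groups compared and Benjamini-Hochberg adjustment over all 17317 genes tested, at an FDR of 5%. Standard errors were obtained from the log2 fold change and its F value (size over root of F). CPM values used TMM over 18 libraries, and precision rests on totals of 11252147 to 13858603 counts. Between replicates of a knockdown group, chi-square per degree of freedom was 2.45 to 6.89, above counting error. A gene with at most 3 counts in every library of a group is given as counts. With 3 against 3 libraries an exact permutation test cannot go below 0.1.

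The scripts were tested on simulated data. Null p-values were at their nominal rate. False calls stayed near the nominal rate where each gene's dispersion lay on the fitted trend, but exceeded it, most for the pair comparison, where dispersions were taken gene by gene with their outliers. The fit was kept as designed, and edgeR's robust, bias-corrected fit, for which the excess was smaller, was added as an alternative after the data had been seen. Further alternatives were DESeq2 1.42.0, its size factors, library totals, other filters, a replicate block, a joint fit of all libraries, stricter thresholds and each library left out.

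The comparison, gene lists and motifs were chosen with earlier results of these data known, so that list counts are descriptions. Named are XBP1, the 12 largest rises and falls and the 6 lowest and highest differences from control cells (called, log2 CPM averaging 3 or more), the 5 largest rises and falls in CPM, and the key, extreme or uncalled members of each list. Not every gene the rule allows is printed. Gene positions are those of GENCODE for GRCh37. Promoters come from RefSeq on GRCh38.p14.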

Additional observations from a re-analysis of the deposited data

Results flagged for a closer look

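Named genes whose response differed between XBP1 knockdown and control cells by edgeR's interaction term were taken for a closer look, 37 in all, and each value is the response in knockdown cells minus that in control cells on the log2 scale. Below 0 were FBXO16 (-1.29), GLRX (-1.28), B9D1 (-1.20), SEC24D (-1.14), MGAT2 (-1.11), KDELR3 (-1.10), DERL3 (-1.08), SMIM14 (-0.80), EDEM1 (-0.76), SRP19 (-0.76), WIPI1 (-0.72), SEC23B (-0.70), SSR1 (-0.70), UFM1 (-0.62), UFL1 (-0.57), HMGCS1 (-0.57), COPB2 (-0.56), SEL1L (-0.55), COPB1 (-0.48), CDC6 (-0.48), ATF6 (-0.44), COPA (-0.44), VCP (-0.41), SEC11C (-0.41), TFRC (-0.36) and GFPT1 (-0.33). Above 0 were N6AMT1 (1.44), NIBAN1 (0.94), TRIM14 (0.83), NRARP (0.82), SMIM29 (0.75), APC2 (0.71), JUNB (0.69), TSC22D3 (0.58), PDGFRA (0.42), PPP2R2A (0.39) and DUSP6 (0.28).

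With each of the 12 libraries left out in turn, 27 of the 37 calls were kept in every fit. The other 10 were lost in at least 1 fit. NIBAN1 and SMIM29 lost their call for 11 of 12 libraries, EDEM1 and GFPT1 for 9, TRIM14 for 8, DUSP6 for 7, NRARP and TFRC for 5, JUNB for 4 and ATF6 for 3. TRIM14 also lost it in edgeR's robust fit (adjusted p = 0.209), and so did NIBAN1 (adjusted p = 0.0526). DESeq2 gave no adjusted p for the differences of KDELR3, GLRX and SMIM29, so that these calls were not kept there. KDELR3 averaged 2.87 in log2 CPM, under the minimum of 3 used for the rankings. No difference changed its direction under the alternatives run.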

How the results depend on the processing

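The counts of genes higher and lower in knockdown cells stayed within 1.5 times of 3333 and 3297 under every alternative but a fold change of at least 1.5, which left 1533 and 1396. With each library left out they were 2883 to 3111 and 2865 to 3042, with library totals 2916 and 3836, and in edgeR's robust fit, added after the data had been seen, 3384 and 3335. Differences from control cells, 63 above and 290 below 0, were 73 and 299 in the robust fit, 104 above in DESeq2, 119 above with all libraries in one fit, 279 and 479 without a filter, 12 and 155 at an FDR of 1%, and 16 and 115 at a fold of at least 1.5. With each library left out they were 24 to 98 and 208 to 357. Differences from CARM1 knockout cells, 1980 and 1667, were 1215 and 1049 at an FDR of 1% and 866 and 691 at a fold of at least 1.5, and 1567 to 1888 and 1431 to 1982 with each library left out. The cause of these shifts was not tested. Library totals moved the median log2 fold change by -0.05. No pairing by replicate number was evident. Deviations of knockdown libraries with the same number had correlations of -0.00692, -0.048 and 0.0216, and not every library correlated best with its own number. Such correlations cannot show whether libraries with the same number were made together. The replicate block gave 3117 higher and 3074 lower genes in knockdown cells. It gave 39 above and 244 below for differences from control cells and 1828 above and 1554 below for those from knockout cells. Under the block the calls of 5 named differences from control cells were not kept, with adjusted p of 0.0636 for EDEM1, 0.0734 for GFPT1, 0.0834 for DUSP6, 0.0885 for NIBAN1 and 0.063 for SMIM29 (edgeR). No named fold change reversed, and 6 of 117 called ones lost their call with 1 library left out. Counts of members that fell were as small as 1 in several lists and moved by 1 or more in some of these fits. Where a group is at or under 3 counts, depth limits what can be said to counts.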
